A study of Caenorhabditis elegans with 12 samples.

Results

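Molecular chaperones of the HSP70 and HSP90 families bind unfolded or partly folded proteins in the cytosol and release them in cycles driven by ATP. HSP70 takes its substrates from J proteins, which stimulate its ATPase, and is reset by nucleotide exchange factors of the HSP110 family. Some substrates are then handed to HSP90 through a linker protein and held by HSP90 together with the small co-chaperone p23, a route used by kinases and steroid receptors in animals. In C. elegans the heat-inducible members of these families are classic targets of the heat shock transcription factor HSF-1, while several others are made in quantity without stress.

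The 8 genes described here are a list of this cytosolic machinery, matched by symbol to the gene identifiers of the count files. All 8 were found among the 46778 genes listed, and all 8 passed the filter on low counts that left 15523 genes for testing. They are the constitutive HSP70 gene hsp-1, the heat-inducible HSP70 gene hsp-70, the HSP110 exchange factor gene hsp-110, the J protein genes dnj-12 and dnj-13, the HSP90 gene hsp-90 (also named daf-21), the HSP70-HSP90 linker gene sti-1 and the p23 gene daf-41. RNA came from whole adults in 4 groups of 3 libraries each: daf-2(e1370) animals of strain CF1041 at day 9 and day 1 of adulthood, and wild type (WT) animals of strain N2 at day 9 and day 1. The daf-2 gene encodes the insulin/IGF-1 receptor of the worm, and e1370 is a missense allele that reduces its function, so the amount of daf-2 message does not check the labels and the mutant arm rests on 1 allele in 1 strain. All 4 groups were kept on OP50 bacteria and were given 50 µM FUdR, an inhibitor of DNA synthesis that prevents progeny, from the last larval or young adult stage. The labels call the 3 libraries of a group biological repeats. The design asks how young and old adults differ in each genotype.

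Library totals ran from 20322128 to 47447136 counts. Summed levels of cell type markers differed with age: 16 germ line markers, for example, summed to 7346 to 8306 CPM (counts relative to a scaled library total) in WT day 9 and 12940 to 15930 CPM in WT day 1 libraries. In daf-2 animals they summed to 7403 to 8644 CPM at day 9 and 7288 to 11740 CPM at day 1. In whole animals, fewer cells of a type and less RNA per cell cannot be told apart.

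The 8 genes lie on 5 chromosomes of the WBcel235 assembly. The hsp-1 gene (WBGene00002005) spans 17278959 to 17281330 on the plus strand of chromosome IV, and hsp-70 (WBGene00002026) spans 9320325 to 9322519 on the minus strand of chromosome I. The hsp-90 gene (WBGene00000915) spans 14684918 to 14688545 on the plus strand of chromosome V, which also holds sti-1 (WBGene00019983) at 773518 to 774775 on the plus strand. The hsp-110 gene (WBGene00016250) spans 8443910 to 8446909 and daf-41 (WBGene00022599) 5273805 to 5274765, both on the minus strand of chromosome III. The dnj-12 gene (WBGene00001030) spans 14756904 to 14758790 on the plus strand of chromosome I, and dnj-13 (WBGene00001031) spans 11545701 to 11547360 on the plus strand of chromosome II. The libraries were unstranded, and exons of hsp-90 overlap those of the opposite-strand gene C47E8.4, which held 20973 counts over all libraries against 1189452 for hsp-90. Exons of dnj-12 overlap tmem-107, which held 51 counts against 125718 for dnj-12.

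Per length, hsp-90 and hsp-1 were the most abundant of the 8 messages in every group. In CPM per kilobase of exon (RPKM), hsp-90 averaged 1516 ± 73.5 in daf-2 day 9, 1503 ± 173 in daf-2 day 1, 1272 ± 15.98 in WT day 9 and 1803 ± 315 in WT day 1 libraries (SD, n = 3 each). By this measure hsp-90 ranked between 83 and 106 among 15481 tested genes in the 4 groups, and hsp-1 ranked between 110 and 165. In WT day 1 libraries the means of hsp-90 and hsp-1, at 1803 ± 315 and 1590 ± 410 RPKM, differed by less than their SDs. The p23 gene daf-41 came next at 663 ± 51.5 RPKM, followed by dnj-12 at 226 ± 16.39, hsp-110 at 217 ± 36.4, sti-1 at 163 ± 28.3 and dnj-13 at 157 ± 30.4 RPKM. Neighbours among dnj-12 and hsp-110, and sti-1 and dnj-13, lay within their SDs of each other. The inducible hsp-70 stood far below the rest, at 0.525 ± 0.316 RPKM and rank 12731.

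**Figure D1:**
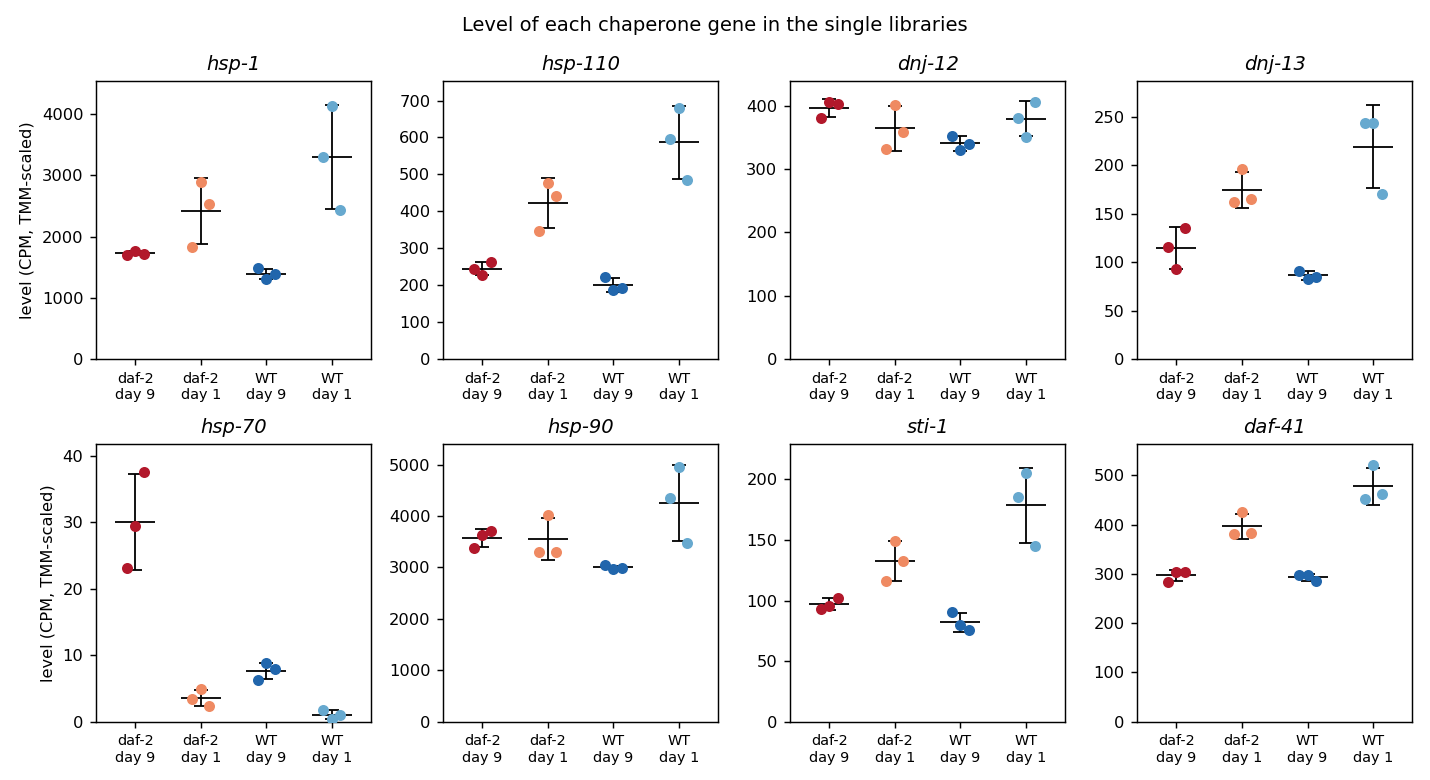
Level of each of the 8 genes in every library, in TMM-scaled CPM on a linear axis from 0, for daf-2 day 9, daf-2 day 1, WT day 9 and WT day 1 animals. Points are single libraries and bars are the mean and SD of 3. Most genes stand highest in WT day 1 libraries, while hsp-70 stands highest in daf-2 day 9 libraries, at 23.1 to 37.6 CPM.

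In ageing wild type animals, 6 of the 8 genes fell and 1 rose. The constitutive HSP70 gene, its HSP110 partner, the J protein gene dnj-13 and the HSP70-HSP90 linker gene fell between 2.17-fold and 2.92-fold, while hsp-90 and daf-41 fell less. The inducible hsp-70 went the other way and rose 7.02-fold, and dnj-12 was not called. Over all tested genes, 56.8% were called in this comparison, 25.6% lower and 31.2% higher, at an adjusted p under 0.05 in edgeR's quasi-likelihood test.

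The levels of the HSP70 genes set the pattern. The hsp-1 level was 1483, 1314 and 1385 CPM in the 3 WT day 9 libraries (replicates 1, 2 and 3), against 3307, 4138 and 2440.4 CPM in the 3 WT day 1 libraries. The day 9 libraries were all below the day 1 libraries, and the log2 change of hsp-1 was -1.24 ± 0.20 (SE, adjusted p = 0.000293). The hsp-70 level was 6.32, 8.77 and 7.88 CPM at day 9 in WT, against 1.77, 0.48 and 0.99 CPM at day 1, a log2 rise of 2.81 ± 0.38 (adjusted p = 6.8e-05). All 3 day 9 libraries lay above the day 1 libraries. The day 1 values of hsp-70 rest on only 34, 8 and 29 counts, and the sources used here do not say how reads matching similar heat-inducible copies were counted, so its values are uncertain.

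The partners of HSP70 split. For hsp-110, whose product swaps the nucleotide on HSP70, the WT day 9 libraries held 222, 187 and 194 CPM and the WT day 1 libraries 595, 681 and 485 CPM. The groups were well apart, with a log2 change of -1.55 ± 0.15 (adjusted p = 7.13e-06), the largest fall of the 8. For dnj-13, a J protein of the DNAJB type, the values were 91.1, 83.0 and 84.4 CPM in WT day 9 and 243, 244 and 169.9 CPM in WT day 1 libraries, and the gene fell by 1.34 ± 0.16 (adjusted p = 3.0e-05) with no overlap. For dnj-12, a J protein of the DNAJA type, the values were 353, 329.5 and 339 CPM in WT day 9 and 381, 351 and 406 CPM in WT day 1 libraries. These groups overlapped, and the log2 change was -0.15 ± 0.10 (adjusted p = 0.207, 95% interval -0.37 to 0.06).

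Next came hsp-90 and its co-chaperones. The hsp-90 level was 3042, 2969 and 2989 CPM in WT day 9 libraries, against 4349, 4945 and 3467 CPM in WT day 1 libraries. Its groups did not overlap, and its log2 change was -0.50 ± 0.16 (adjusted p = 0.0151). For sti-1, the linker between HSP70 and HSP90, the libraries held 90.8, 79.4 and 76.1 CPM at day 9 in WT and 186, 206 and 145 CPM at day 1. The sti-1 day 9 values all lay below the day 1 values, and sti-1 fell by 1.12 ± 0.13 (adjusted p = 3.1e-05). For daf-41, which encodes p23, the libraries held 298, 298 and 286 CPM at day 9 in WT and 452, 521 and 461 CPM at day 1, with no overlap and a fall of 0.70 ± 0.10 (adjusted p = 7.8e-05). Without WT day 1 replicate 2, the library with the highest hsp-90 level, the hsp-90 change was -0.38 (adjusted p = 0.0516). Single libraries did not overlap for 7 genes, 1 higher and 6 lower, against 35.9% of all tested genes higher and 28.7% lower.

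Several measures moved beside these falls. The median log2 change with age in WT was -0.91 over the 8 genes and 0.09 over all tested genes. Of the 16 germ line markers, 12 fell with age in WT, and no marker was at 0 over a whole group. Body wall muscle, intestine and hypodermis marker sums also stood lower in WT day 9 libraries (823 to 901, 1630 to 1819 and 261 to 301 CPM) than in WT day 1 libraries (2956 to 4677, 3698 to 4303 and 1315 to 1746 CPM). The single markers were mixed: 12 of 14 for muscle fell, while 5 of 10 for intestine fell and 1 rose. Of 10 hypodermis markers, 4 fell, 3 were not called and 3 were not tested. Neuron markers summed to 367 to 404 CPM at day 9 and 263 to 275 CPM at day 1. The part of these markers in the changes of the 8 genes was not tested.

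**Figure D2:**
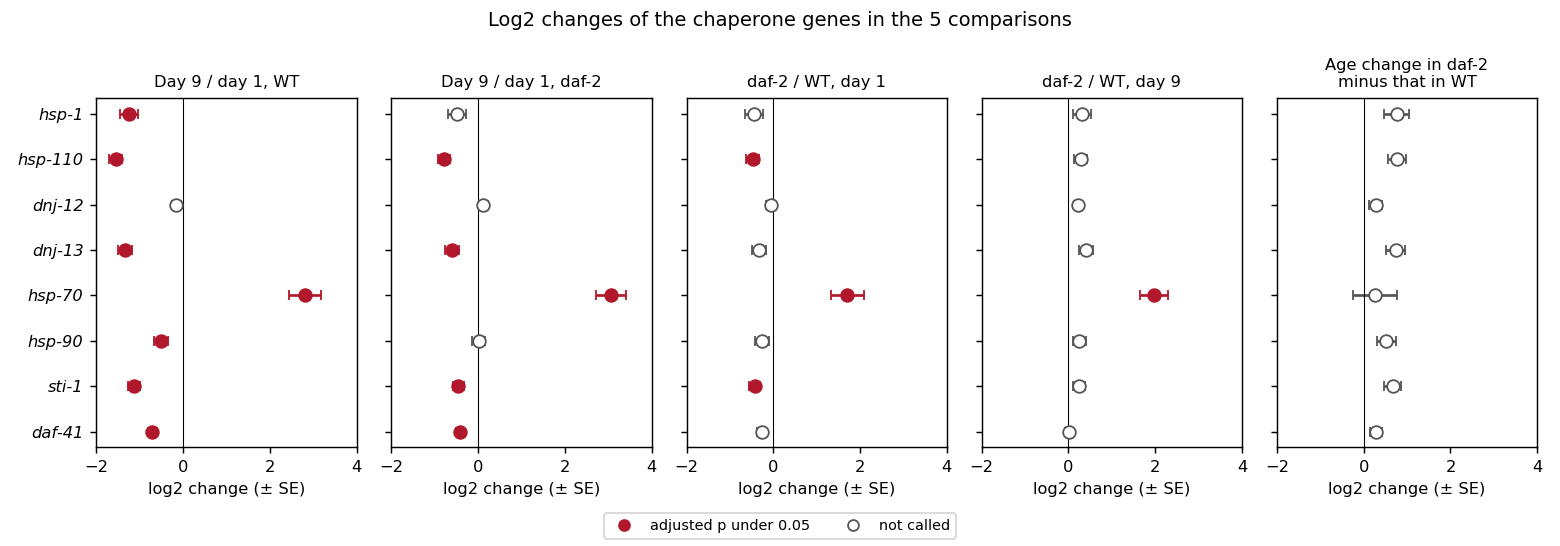
Log2 changes of the 8 genes with their SEs in the 5 comparisons: day 9 over day 1 in each genotype, daf-2 over WT at each age, and the daf-2 age change minus the WT age change. Filled points have an adjusted p under 0.05 in edgeR's quasi-likelihood test and open points do not. The hsp-70 change is positive and called in the first 4 panels, and none of the 8 is called in the last.

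In ageing daf-2 animals, 4 of the 8 genes fell and 1 rose. The fallers were hsp-110, dnj-13, sti-1 and daf-41, and hsp-70 rose 8.41-fold. The 2 most abundant members, hsp-1 and hsp-90, and the J protein gene dnj-12 were not called. Over all tested genes, 43.3% were called, 21.5% lower and 21.9% higher. The median log2 change was -0.43 over the 8 genes and 0.01 over all tested genes.

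For hsp-90 the 2 ages overlapped in daf-2, and for hsp-1 they did not. The hsp-90 level was 3380.4, 3638 and 3710.4 CPM in daf-2 day 9 libraries, against 3308, 4016 and 3309.7 CPM in daf-2 day 1 libraries. These values overlapped, and the log2 change was 0.01 ± 0.15 (adjusted p = 0.954, 95% interval -0.32 to 0.35). The hsp-1 level was 1702, 1769.97 and 1723 CPM in daf-2 day 9 libraries, against 1829, 2897 and 2537 CPM in daf-2 day 1 libraries. The hsp-1 day 9 libraries all lay below the day 1 libraries, yet the change of -0.48 ± 0.20 missed the threshold (adjusted p = 0.0680, 95% interval -0.92 to -0.05). The lowest day 1 value came from replicate 1, and without that library hsp-1 fell by 0.65 (adjusted p = 0.0197). The hsp-1 fall was also called without WT day 1 replicate 2 (-0.49, adjusted p = 0.0398), without WT day 1 replicate 3 (-0.49, adjusted p = 0.0395), and by DESeq2. It was thus called in 4 of 20 alternatives.

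Among the partners of HSP70, hsp-110 held 244, 228 and 262 CPM in daf-2 day 9 libraries and 348, 478 and 441 CPM in daf-2 day 1 libraries. The groups did not overlap, and hsp-110 fell by 0.79 ± 0.15 (adjusted p = 0.00121). For dnj-13, the libraries held 115, 92.9 and 136 CPM at day 9 in daf-2 and 162, 196 and 165 CPM at day 1, with no overlap and a fall of 0.61 ± 0.16 (adjusted p = 0.00884). The dnj-12 level was 379.6, 405 and 402 CPM in daf-2 day 9 libraries and 331, 402 and 359 CPM in daf-2 day 1 libraries. These dnj-12 values overlapped, with a log2 change of 0.12 ± 0.10 (adjusted p = 0.350, 95% interval -0.10 to 0.34).

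The inducible hsp-70 held 23.1, 29.4 and 37.6 CPM in daf-2 day 9 libraries (578, 1631 and 1812 counts), against 3.47, 4.90 and 2.40 CPM in daf-2 day 1 libraries (84, 93 and 56 counts). All day 9 values lay above the day 1 values, and the log2 rise was 3.07 ± 0.35 (adjusted p = 3.3e-05). Of the HSP90 co-chaperones, sti-1 held 92.8, 95.3 and 102 CPM at day 9 in daf-2 and 116, 149 and 133 CPM at day 1, and fell by 0.45 ± 0.13 (adjusted p = 0.0161) with no overlap. This call was lost without daf-2 day 1 replicate 2 (-0.36, adjusted p = 0.0695) and without daf-2 day 9 replicate 1 (-0.42, adjusted p = 0.0558). The p23 gene daf-41 held 284, 304 and 303 CPM at day 9 in daf-2 and 381, 426 and 383 CPM at day 1. Its groups were apart, and it fell by 0.42 ± 0.10 (adjusted p = 0.00421). Single libraries did not overlap for 6 genes, 1 higher and 5 lower, against 27.6% of all tested genes higher and 25.2% lower. Of the 16 germ line markers, 3 fell with age in daf-2, and body wall muscle markers summed to 585 to 1036 CPM in daf-2 day 9 and 4565 to 6467 CPM in daf-2 day 1 libraries. Intestine markers summed to 577 to 1112 CPM at day 9 in daf-2 and 2837 to 4688 CPM at day 1. As single markers, 12 of 14 for muscle and 8 of 10 for intestine fell. The part of these markers was not tested.

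The directions with age depend in part on how libraries are scaled. Scaling by total counts alone, a setting added after the values were seen, raised the median change of all genes by 0.35 in either genotype and turned the split of all calls in daf-2 to 6241 higher and 1725 lower, against 3395 higher and 3330 lower with TMM, and in WT to 7061 higher and 1887 lower, against 4848 higher and 3970 lower. Under it hsp-70 still rose and hsp-110 still fell in both genotypes, and hsp-1, sti-1, dnj-13 and daf-41 still fell in WT. The falls of sti-1, dnj-13 and daf-41 in daf-2 were no longer called (-0.10, -0.26 and -0.06), nor was that of hsp-90 in WT (-0.14). In daf-2, hsp-90 (0.37, adjusted p = 0.0192) and dnj-12 (0.47, adjusted p = 0.00258) were then called higher. As a share of all counts before any scaling, the 8 genes together took 0.739 ± 0.030% in daf-2 day 9, 0.664 ± 0.061% in daf-2 day 1, 0.605 ± 0.020% in WT day 9 and 0.818 ± 0.114% in WT day 1 libraries (SD, n = 3 each).

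At day 1, daf-2 animals had more hsp-70 and slightly less of some partners than WT animals. The hsp-70 level averaged 3.59 ± 1.25 CPM in daf-2 day 1 and 1.08 ± 0.65 CPM in WT day 1 libraries (SD, n = 3 each), a log2 difference of 1.71 ± 0.38 (SE, adjusted p = 0.0114), with no overlap. The exchange factor gene hsp-110 averaged 422 ± 67.1 CPM in daf-2 day 1 and 587 ± 98.2 CPM in WT day 1 libraries, a difference of -0.47 ± 0.15 (adjusted p = 0.0482). The linker gene sti-1 averaged 133 ± 16.6 CPM in daf-2 day 1 and 179 ± 31.1 CPM in WT day 1 libraries, a difference of -0.43 ± 0.13 (adjusted p = 0.0474). Thus 1 of the 8 was called higher and 2 lower, against 10.3% and 5.06% of all tested genes, or 15.4% in either direction. Single libraries did not overlap for hsp-70, higher in daf-2, nor for hsp-110 and daf-41, lower in daf-2, against 17.2% of all tested genes higher and 13.7% lower.

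The other day 1 differences were not called. They were -0.44 ± 0.20 for hsp-1 (adjusted p = 0.143, 95% interval -0.88 to -0.01), -0.33 ± 0.16 for dnj-13, -0.27 ± 0.10 for daf-41, -0.26 ± 0.15 for hsp-90 and -0.06 ± 0.10 for dnj-12. The hsp-110 and sti-1 calls lay near the threshold, and each held in 8 of 20 alternatives, with adjusted p from 0.0108 to 0.187 for hsp-110 and from 0.0147 to 0.192 for sti-1. Leaving out any single library other than WT day 1 replicate 3 or daf-2 day 1 replicate 2 ended both calls, as did the replicate block. In a fit of the day 1 libraries alone, both calls and that of hsp-70 (1.73, adjusted p = 0.0584) were lost. Of the germ line markers, 4 of 16 were lower in daf-2 at day 1, while 4 of 10 intestine markers and 4 of 10 neuron markers were higher. The part of these markers in the differences was not tested.

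At day 9, hsp-70 was the member called higher in daf-2. It averaged 30.02 ± 7.25 CPM in daf-2 day 9 and 7.66 ± 1.24 CPM in WT day 9 libraries (SD, n = 3 each), a 3.92-fold or log2 difference of 1.97 ± 0.32 (SE, adjusted p = 0.00176). For 7 of the 8 genes, every daf-2 day 9 library lay above every WT day 9 library, the exception being daf-41, against 20.1% of all tested genes higher and 17.2% lower. For instance, hsp-90 held 3380.4 to 3710.4 CPM in daf-2 day 9 and 2969 to 3042 CPM in WT day 9 libraries, and hsp-1 held 1702 to 1769.97 CPM in daf-2 day 9 and 1314 to 1483 CPM in WT day 9 libraries. Other gaps were narrow: the lowest daf-2 and highest WT values were 92.9 and 91.1 CPM for dnj-13, 92.8 and 90.8 CPM for sti-1, and 227.7 and 222.2 CPM for hsp-110. The 7 genes were measured in the same libraries and are not 7 separate pieces of evidence. The 1 member called stands beside 10.8% of all tested genes called, 4.54% higher and 6.26% lower.

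These gaps at day 9 were small. The differences of the 6 uncalled genes without overlap ran from 0.22 for dnj-12 to 0.41 for dnj-13 on the log2 scale, with adjusted p from 0.128 to 0.363. The difference of daf-41 was 0.02 ± 0.10 (adjusted p = 0.931, 95% interval -0.19 to 0.22). An edgeR fit of the day 9 libraries alone, without a block, called 2 members higher. They were hsp-70 and hsp-1 (adjusted p = 0.0326 for hsp-1). Over all genes, calls higher at day 9 ran from 399 to 1420 over the alternatives. A fit of the day 9 libraries alone with the replicate number as a block, added after the values were seen, called 3 members higher: hsp-70 (1.95, adjusted p = 0.000449), hsp-110 (0.28, adjusted p = 0.0446) and dnj-13 (0.39, adjusted p = 0.0421). That fit called 9.47% of all genes higher and 13.9% lower. Of 10 intestine markers, 4 were lower and 1 higher in daf-2 at day 9, and their sums were 577 to 1112 CPM in daf-2 day 9 and 1630 to 1819 CPM in WT day 9 libraries. The 16 germ line markers summed to 7403 to 8644 CPM in daf-2 day 9 and 7346 to 8306 CPM in WT day 9 libraries. The part of the markers in these differences was not tested.

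The change with age was then compared between genotypes. Subtracting the WT change from the daf-2 change gave a positive log2 difference for all 8 genes, against 47% of all tested genes, with a median of 0.59 over the 8 and -0.05 over all. None of the 8 was called by edgeR, against 5.29% of all tested genes, 0.573% higher and 4.72% lower, while 5 of the 8 had an unadjusted p under 0.05 in edgeR, against 23.8% of all tested genes. DESeq2 called 5 of the 8 higher, against 3.85% of all genes it tested higher and 8.92% lower. Without WT day 1 replicate 3, edgeR called 3 of them higher (hsp-110, sti-1 and dnj-13), beside 0.892% higher and 3.66% lower over every gene in that fit. The largest differences were 0.76 ± 0.21 for hsp-110 (adjusted p = 0.0558, 95% interval 0.31 to 1.21), 0.76 ± 0.28 for hsp-1 (adjusted p = 0.130), 0.74 ± 0.22 for dnj-13 (adjusted p = 0.0752) and 0.67 ± 0.19 for sti-1 (adjusted p = 0.0599). For hsp-70 the difference was 0.26 ± 0.50 (adjusted p = 0.789, 95% interval -0.83 to 1.36). The 8 genes were measured in the same libraries, so their shared sign is not 8 separate pieces of evidence.

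Ratios between members within a library do not depend on scaling. They were chosen after the values were seen, and exact two-sided permutation tests of 28 such comparisons cannot go below p = 0.1. The smallest adjusted p among them was 0.165, so none passed the threshold. Per length, hsp-1 stood at 55.2 ± 2.23% of hsp-90 in daf-2 day 9 and 77.4 ± 12.8% in daf-2 day 1 libraries, and at 52.8 ± 2.56% in WT day 9 and 87.3 ± 7.59% in WT day 1 libraries (SD, n = 3 each). The linker gene sti-1 stood at 5.83 ± 0.16% of hsp-90 in daf-2 day 9 and 8.06 ± 0.55% in daf-2 day 1 libraries, and at 5.89 ± 0.49% in WT day 9 and 9.04 ± 0.13% in WT day 1 libraries. In both genotypes these ratios were lower in every day 9 library than in every day 1 library (exact permutation p = 0.1).

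Within the HSP70 system the same ratios were taken to hsp-1. The exchange factor gene hsp-110 was 10.9 ± 0.91% of hsp-1 in daf-2 day 9 and 13.5 ± 0.98% in daf-2 day 1 libraries, and 11.04 ± 0.40% in WT day 9 and 13.9 ± 1.31% in WT day 1 libraries, with no overlap in either genotype. By contrast dnj-12 was 28.3 ± 0.65% of hsp-1 in daf-2 day 9 and 19.03 ± 2.94% in daf-2 day 1 libraries, and 30.3 ± 0.81% in WT day 9 and 15.1 ± 5.095% in WT day 1 libraries, again with no overlap between ages. The dnj-13 to hsp-1 ratio overlapped in all 4 comparisons, with means between 9.17% and 10.9%. The inducible hsp-70 reached 1.75 ± 0.42% of hsp-1 in daf-2 day 9 libraries, against 0.152 ± 0.050% in daf-2 day 1, 0.559 ± 0.122% in WT day 9 and 0.0355 ± 0.0217% in WT day 1 libraries. The daf-41 to hsp-90 ratio was 27.2 ± 0.40% in daf-2 day 9 and 32.0 ± 0.77% in WT day 9 libraries, with no overlap (exact permutation p = 0.1).

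**Figure D3:**
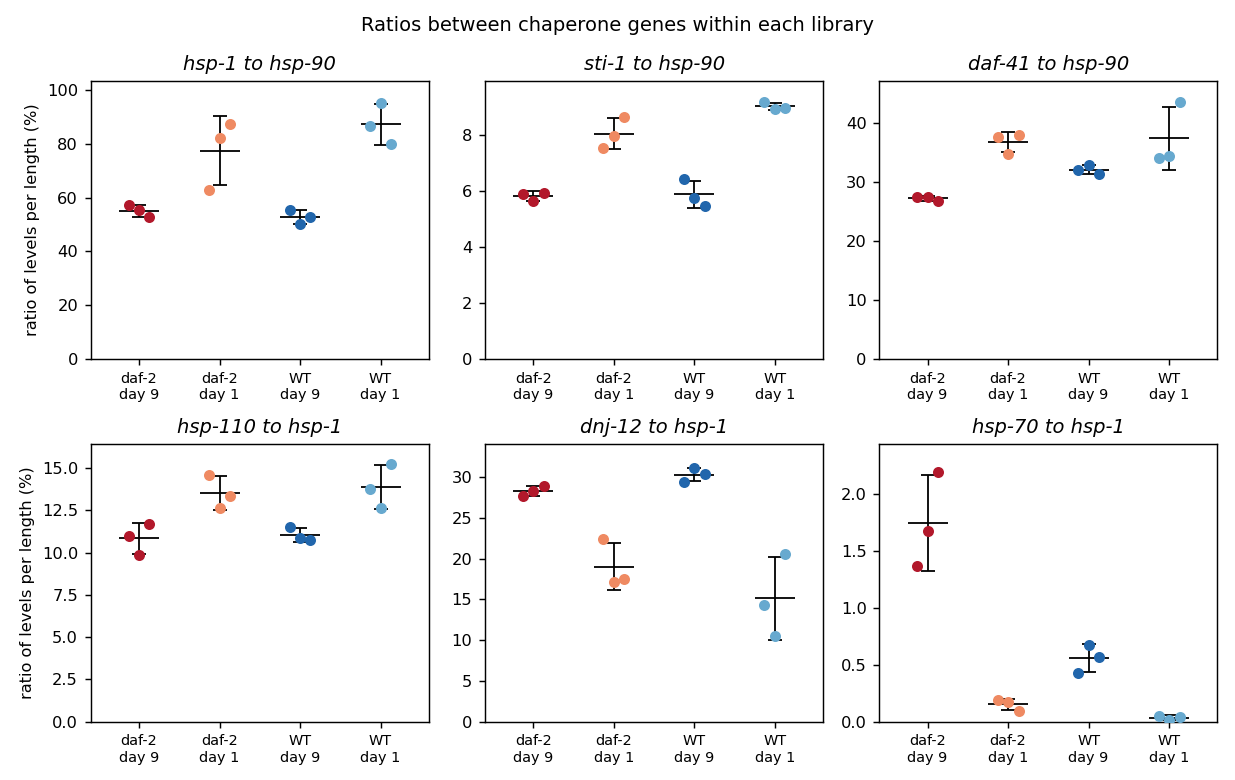
Ratios between members within each library, per length and in percent, for daf-2 day 9, daf-2 day 1, WT day 9 and WT day 1 animals. Points are single libraries and bars are the mean and SD of 3. The hsp-1 to hsp-90 and sti-1 to hsp-90 ratios are lower at day 9 than at day 1 in both genotypes, and dnj-12 to hsp-1 is higher.

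Other chaperone genes were grouped into 8 lists, whose calls stand beside the shares of all tested genes called lower and higher (25.6% and 31.2% with age in WT, 21.5% and 21.9% with age in daf-2). With age in WT, 5 of 6 HSP90 co-chaperone genes and 3 of 4 HSP70 co-chaperone genes fell, among them sgt-1, a co-chaperone with tetratricopeptide repeats (log2 change -0.86, adjusted p = 1.84e-05), and hip-1, an HSP70-interacting protein gene (-1.12). Of 8 genes for CCT, the ring-shaped chaperonin that folds actin and tubulin, 7 fell, and cct-5 changed by -1.26. Of 6 genes for prefoldin, which delivers substrates to CCT, 4 fell, and pfd-3 changed by -0.91. Of 27 other J protein genes, 15 fell, with dnj-9 at -0.93, and 3 rose, with dnj-27, an endoplasmic reticulum J protein gene, at 1.04.

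The remaining lists held calls in other directions. Among 8 other HSP70 and HSP90 family genes, 2 fell and 2 rose with age in WT, near the shares over all genes. Of these, hsp-6, the mitochondrial HSP70, changed by -1.47, while enpl-1, the HSP90 of the endoplasmic reticulum, changed by 0.81. Only 1 was called higher with RLE scaling, with only the libraries compared and without several single libraries. Of 5 hsp-16 small heat shock genes tested, 4 rose, with hsp-16.1 at 2.01 (adjusted p = 0.00249). That value belongs to WBGene00002017, and another identifier, WBGene00002015, carries the same name. Identifiers that share a name, as also for hsp-16.48, were listed as separate genes. Without WT day 1 replicate 3, 2 of the hsp-16 genes were called higher with age in WT. Of hsf-1 and its regulators, 2 of 4 fell, and hsf-1 itself changed by -0.48 ± 0.10 (adjusted p = 0.0018).

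With age in daf-2, 2 of 6 HSP90 co-chaperone genes fell, with unc-45, a myosin chaperone, at -0.52, and 2 of 4 HSP70 co-chaperone genes fell, with the exchange factor gene bag-1 at -0.75. Of the CCT genes 5 of 8 fell, with cct-5 at -0.85, and all 6 prefoldin genes fell, with pfd-3 at -0.64. Of the 27 J protein genes 8 fell and 3 rose, with dnj-9 at -0.62 and dnj-27 at 0.51, which for the falls is near the share over all genes. Of the family genes 2 of 8 rose and 2 fell, again near the shares over all genes, with enpl-1 at 0.90 and hsp-75, the mitochondrial HSP90, at -0.61. Of the hsp-16 genes 4 of 5 rose, with hsp-16.2 at 1.91. That count came to 2 without daf-2 day 1 replicate 2 and to 2 without daf-2 day 1 replicate 3. It came to 1 without daf-2 day 9 replicate 3. The hsf-1 change was -0.20 ± 0.10 (adjusted p = 0.124), and 0.14 with scaling by total counts. Of all 15523 tested genes, that scaling called 6241 higher and 1725 lower in daf-2. In WT it called 7061 higher and 1887 lower. The list counts below stand beside these numbers, not beside the shares with TMM. Under that scaling the daf-2 calls with age were 2 higher and 0 lower of the HSP90 co-chaperones, 1 higher and 2 lower of the HSP70 co-chaperones, 9 higher and 0 lower of the J proteins, 5 higher and 1 lower of the family genes, 1 higher and 2 lower of CCT, 0 higher and 1 lower of prefoldin, 1 higher of hsf-1 and its regulators and 4 higher of the hsp-16 genes. In WT they were 1 higher and 3 lower of the HSP90 co-chaperones, 2 lower of the HSP70 co-chaperones, 8 higher and 5 lower of the J proteins, 4 higher and 2 lower of the family genes, 7 lower of CCT, 2 lower of prefoldin and 4 higher of the hsp-16 genes, and hsf-1 was no longer called (-0.12, adjusted p = 0.292). Upper-quartile scaling in daf-2 called 5 J protein genes and 1 CCT gene higher, and 1 HSP90 co-chaperone and 3 prefoldin genes lower. The counts over all genes with upper-quartile scaling are not given here. Over all alternatives they ran from 2552 to 6241 higher and from 1725 to 3494 lower in daf-2. Whether the lists moved differently in the 2 genotypes was tested gene by gene only. The list medians in daf-2 were -0.13 for HSP90 co-chaperones, -0.48 for HSP70 co-chaperones, -0.15 for J proteins, -0.46 for CCT, -0.42 for prefoldin, 0.20 for the other family genes, -0.10 for hsf-1 and its regulators and 1.55 for the hsp-16 genes. In WT they were -0.68 for HSP90 co-chaperones, -0.47 for HSP70 co-chaperones, -0.27 for J proteins, -1.02 for CCT, -0.39 for prefoldin, 0.04 for the other family genes, -0.43 for hsf-1 and its regulators and 2.01 for the hsp-16 genes.

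**Figure D4:**
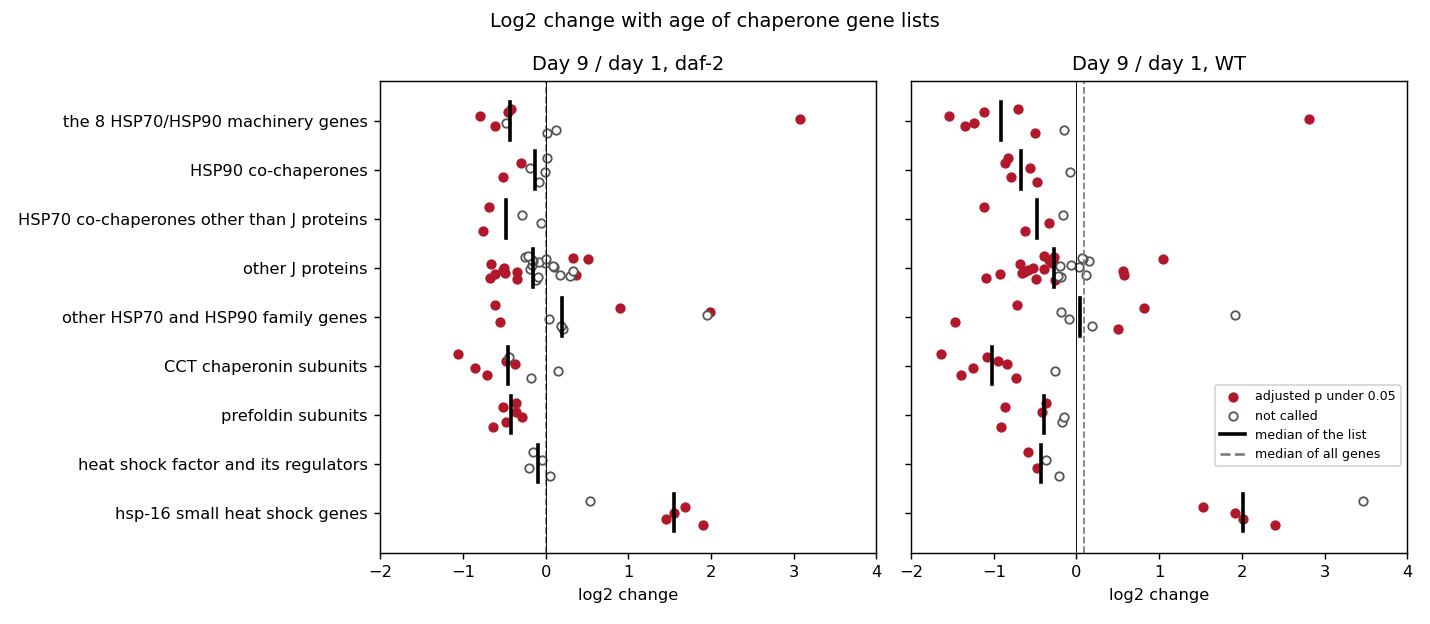
Log2 change with age of every gene of the chaperone lists in daf-2 (left) and WT (right). Filled points have an adjusted p under 0.05, the black bar is the list's median and the dashed line the median of all tested genes. The CCT list has a median of -0.46 in daf-2 and -1.02 in WT, and the hsp-16 list 1.55 in daf-2 and 2.01 in WT.

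Between genotypes, few of these genes were called in the main fit (edgeR with TMM scaling over all 12 libraries). At day 1, 3 of 6 HSP90 co-chaperone genes were lower in daf-2, with the immunophilin gene fkb-6 at -0.36, as were 1 of 4 HSP70 co-chaperone genes (chn-1, the CHIP ubiquitin ligase, at -0.29) and 4 of 8 CCT genes, with cct-2 at -0.54, against 5.06% of all tested genes lower. These day 1 counts depend on the setting: those of CCT and of the HSP90 co-chaperones came to 0 in edgeR with only the libraries compared, without WT day 1 replicate 2 and without daf-2 day 1 replicate 1, and to 1 or 2 without several other single libraries, while DESeq2 called 7 CCT genes lower. Over all genes, 786 were called lower at day 1 in the main fit, 1673 by DESeq2 and 239 without WT day 1 replicate 2. Of 27 other J protein genes, 0 were called at day 1 in the main fit. DESeq2 called 6 of them lower, and without WT day 1 replicate 1 there were 6 lower and 2 higher. With RLE scaling 4 were lower, as with the stricter filter. At day 9, F44E5.5, 1 of 8 other HSP70 and HSP90 family genes, was higher in daf-2 (2.15, adjusted p = 0.0492). The gene pfd-1, 1 of 6 for prefoldin, was lower (-0.37, adjusted p = 0.0321). Over all tested genes, 4.54% were called higher and 6.26% lower, and the remaining chaperone lists held no call at day 9. The F44E5.5 call held in 10 of 21 alternatives (adjusted p from 0.0196 to 0.17), that of pfd-1 in 14 of 21 and that of chn-1 in 9 of 20. The counts of F44E5.5 are uncertain, since it has a near-identical neighbour, F44E5.4. Summed over both, the level was 120, 73.1 and 258 CPM in daf-2 day 9 libraries and 55.6, 75.1 and 52.1 CPM in WT day 9 libraries, which overlapped. The hsf-1 difference was -0.09 ± 0.10 at day 1 and 0.19 ± 0.10 at day 9, neither called (adjusted p = 0.538 and 0.286). The age change differed between genotypes for sgt-1 (0.56 ± 0.14, adjusted p = 0.0332) and hsp-6 (0.91 ± 0.23, adjusted p = 0.0372), calls that held in 10 and 12 of 19 alternatives. They were 1 of 6 HSP90 co-chaperone genes and 1 of 8 family genes, against 0.573% of all tested genes higher and 4.72% lower. In the main fit, no gene of the remaining lists was called for this difference. Of 8 CCT genes, DESeq2 called 4 higher, against 3.85% of all genes it tested. The stricter filter called 2 CCT genes higher, and upper-quartile scaling and total counts 1 each.

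Genes with the most similar profile were ranked by Pearson's r of log2 CPM over the 12 libraries, which fall into 4 groups, so that any gene with the same group means scores high. The nearest to hsp-1 were cct-7 (r = 0.992), atp-1 and tars-1. The nearest to hsp-110 were ears-1 (0.992), ifet-1 and atp-2, and to sti-1 they were atp-2 (0.989), hsp-110 and atp-1. For dnj-13 the nearest were T02G5.7 (0.974), hsp-110 and ears-1, and for daf-41 asb-1 (0.994), nduf-9 and pbs-7. The profiles of hsp-90 and dnj-12 had looser neighbours, with abcf-2 at 0.945 and efk-1 at 0.916. The inducible hsp-70 was nearest to C07E3.3 (0.986), C54F6.5 and F47G9.4.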

How the data were processed

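RNA from whole adults was sequenced in 12 libraries, 3 in each of 4 groups. The authors deposited 1 table of raw, unnormalized gene counts (whole numbers) for each library. Per the submitters' processing notes, STAR 2.7.0e, RSEM 1.3.1, DESeq2 1.22.2 and the build WBcel235 (ce11) were used, without their roles. Per the labels' protocols, libraries were made with an unstranded TruSeq kit. Rounding from estimates, and the handling of reads that match several genes, are not stated in the sources used here. Identifiers were matched to the WBcel235 annotation, which held 46603 of 46778 listed genes, and 24222 genes had no count in any library. Values are uncertain for near-identical copies.

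Tests used edgeR 4.0.16 in R 4.3.3: TMM scaling, the package's filter (minimum count 10), 1 quasi-likelihood fit of 4 group means over 12 libraries, and Benjamini-Hochberg adjustment over 15523 genes in each of 5 comparisons. The threshold for a call was an adjusted p of 0.05. The SE is the size of the log2 change over the square root of F, and 95% intervals use the t distribution with the fit's degrees of freedom. CPM are counts relative to the TMM-scaled library total, and RPKM divide these by the exon length. Ratios were tested with exact two-sided permutation tests. Depth limits low genes: where no read was counted, up to 3 remain possible, and this floor covers counting error alone because PCR copies are not separate molecules. Replicate libraries of a group were never identical, with chi-square per degree of freedom between 12.2 and 109.4 for each pair, and all counted as replicates.

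The members and gene lists were chosen with earlier results of these data known. From each list, the named genes are those called with the smallest p in each direction in each comparison, plus hsf-1, and for each member the 3 genes with the most similar profile. Cell type markers were summed as CPM. Alternatives were upper-quartile and RLE scaling, other filters on low counts, DESeq2 1.42.0, only the libraries compared, the replicate number as a block, and each library left out. Added after the values were seen were scaling by total counts and a day 9 fit with the block.

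The labels give a replicate number but do not say that it pairs libraries. Deviations from group means of same-numbered libraries had correlations of 0.357, 0.135 and 0.577 at day 9 across genotypes. Each was over 0.1, which was taken as a reason to fit the block at day 9. Differently numbered libraries were not set beside them, so pairing is not shown. At day 1 the same-numbered correlations were 0.227, 0.343 and -0.0165, between ages in WT -0.0854, 0.00828 and -0.178, and between ages in daf-2 0.0375, -0.0143 and -0.313. In each of these sets at least 1 value was under 0.1, and they were not taken as paired.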

Additional observations from a re-analysis of the deposited data

Results flagged for a closer look

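Of the chaperone genes listed, 2 were called for a change with age that differed between genotypes. They were 1 of 6 HSP90 co-chaperone genes and 1 of 8 other HSP70 and HSP90 family genes, and none of the 8 members was called. Both are named because they were called, so their being called is no separate finding. The test was the interaction test. Over all tested genes, 5.29% were called by it, 0.573% higher and 4.72% lower. For sgt-1, an HSP90 co-chaperone gene, the log2 change in daf-2 minus that in WT was 0.559 (adjusted p = 0.0332, edgeR), and this call held in 10 of 19 alternatives, with adjusted p from 0.00342 to 0.0941. For hsp-6, the mitochondrial HSP70 gene, it was 0.91 (adjusted p = 0.0372), and the call held in 12 of 19 alternatives, with adjusted p from 0.0035 to 0.107. The alternatives that ended either call each left out 1 library. Groups of 3 libraries were not searched for outlying samples.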

How the results depend on the processing

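Over 800 values of the 8 genes under alternative settings, 729 kept their direction and side of the threshold, 29 were newly called, 32 lost their call and 10 reversed. Upper-quartile scaling raised the median change of all genes with age by 0.17 in WT and 0.13 in daf-2, and gave 2 members called higher with age in daf-2. Total counts gave 3 higher and 1 lower there. At day 1, members called lower in daf-2 came to 0 with the replicate block over all libraries and to 0 when only the libraries compared were fitted, which also gave 0 called higher. At day 9, members called higher came to 2 with only the libraries compared and 3 with the replicate block in the day 9 libraries, and the block over all 12 changed no other count of members. For the difference in ageing, members called higher came to 2 with upper-quartile scaling, 1 with no filter and 2 with the stricter filter. They came to 3 with total counts and 5 with DESeq2. Over all genes, calls higher in this difference came to 89 in the main fit and ran from 29 to 505, the last with DESeq2. The all-gene counts for the scaling and filter settings are not given here, so those member counts cannot be set beside them. Leaving out single libraries gave 5 to 6 members lower with age in WT, 3 to 5 lower with age in daf-2, 0 to 2 lower at day 1 and 0 to 3 higher in the difference, where the 3 came without WT day 1 replicate 3.

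With age in WT dnj-12 stood at 0.013 with upper-quartile scaling and 0.20 with total counts. With age in daf-2, total counts put hsf-1 at 0.14 and sgt-1 at 0.045. Leaving out single libraries moved hsp-90 with age in daf-2 between -0.075 and 0.11. At day 1 it moved dnj-12 between -0.136 and 0.00588 and hsf-1 between -0.19 and 0.000381. At day 9 it moved daf-41 between -0.0106 and 0.0536. The hsp-70 difference in ageing moved between -0.22 (without WT day 1 replicate 1) and 0.57 (without WT day 1 replicate 2). The cause of these moves was not tested. Counts over all genes, which serve only as background, also moved: the difference in ageing called 89 genes higher, from 29 to 505 over the alternatives, and day 1 called 786 lower, from 239 to 1673. Counts of called genes in the chaperone lists moved with the scaling, as given beside them, and also when single libraries were left out. The ratios whose groups did not overlap were recomputed 102 times with 1 library left out. With 3 libraries in a group, the shift is always smaller than the spread between replicates, so these recomputations tested nothing. Depth limits hsp-70 in WT day 1 libraries, with 8 to 34 counts.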

Other observations

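The 2 gene identifiers named hsp-16.48 held the same count in 5 of 12 libraries, and in 4 libraries one of them was at 0 while the other was not. Summed over both, hsp-16.48 stood at 48.4, 30.8 and 56.6 CPM in daf-2 day 9 libraries and 27.5, 21.9 and 8.74 CPM in daf-2 day 1 libraries. The WT sums were 33.0, 44.8 and 32.7 CPM in day 9 libraries, against 16.7, 5.52 and 9.40 CPM in day 1 libraries. Every day 9 sum lay above every day 1 sum within a genotype. These sums were formed after the values of the single copies were seen.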
